A study of Caenorhabditis elegans with 2 samples.

Results

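Of the 1929 reproducible ZTF-26 peaks in the optimal list, 320 were autosomal and lay far from every annotated protein-coding promoter. A peak was counted as distal when its summit was more than 100 bp from any tRNA gene, outside every exon and intron of a protein-coding gene, and outside the window from 1000 bp upstream to 500 bp downstream of each protein-coding transcript start. A non-coding RNA gene could hold the summit. The 320 were drawn from 1466 autosomal optimal peaks, of which 757 had their summit in a promoter window, 283 in a protein-coding gene body outside those windows and 106 within 100 bp of a tRNA gene. The same rule took 132 optimal peaks on the X chromosome and 3754 autosomal peaks from the pooled candidate list that fell below the optimal list, called lower-ranked here. The choice used position and annotation only, and no signal value beyond membership of the lists.

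ZTF-26 is a zinc finger protein of the nematode Caenorhabditis elegans, and its binding was mapped by chromatin immunoprecipitation and sequencing (ChIP-seq). The worms were of strain OP565, with the genotype unc-119(tm4063) III and the transgene wgIs565, which adds a GFP-FLAG tag to the C terminus of ZTF-26. Whole worms, pooled male and female young adults, were taken 56 hours after they had been synchronized, by bleaching and starvation, as L1 larvae, and an anti-GFP antibody was used on sonicated chromatin. The labels give 2 biological replicates, numbered 3 and 4, of 1 group, so there is no contrast between conditions, and a control library was not analysed here. The values come from 1 transgenic line, whose tagged protein may differ in level or place from the native one. In a lysate of whole animals, a site bound in few cells and a site weakly bound in many cells cannot be told apart.

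The worm genome is compact, and most of the sites where transcription factors bind lie close to gene starts. Sequence that lies far from coding starts can hold enhancers, which act on a gene at a distance, and also the promoters of small non-coding RNAs. Among these RNAs are small nucleolar RNAs (snoRNAs), which guide chemical modification of ribosomal RNA, and spliced leader RNAs, which are trans-spliced onto the starts of most worm mRNAs. Each worm autosome has a gene-dense central region and 2 arms that are richer in repeats and recombine more often.

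The sequences that carry the results below are those within 50 bp of selected summits, on the forward strand of ce11 (WBcel235). Capitals mark matches to 10 words, each searched on both strands. ACGCAGA and GAGACGC overlap at 4 bases to make a run of 10, and the word CTGCGTC is the reverse complement of the middle of that run. The words CTCTCTC and GAGAGA mark alternating runs, and the first contains the second read on the other strand. CACGTG is an E-box, the word that basic helix-loop-helix factors bind, and GTTCGA the core of the B box, an internal promoter element of tRNA genes. TGATAA is a form of the word bound by GATA factors. The last of the words are CCGCCC, rich in G+C, and CGCCAGC. A match is a run of letters and was not tested as a binding site. The first 3 windows are shown for that 10-base run, which the strongest of them, between T04C4.3 and fnip-2, holds once on each strand, beside an E-box.
T04C4.3 and fnip-2, IV:2219550-2219650: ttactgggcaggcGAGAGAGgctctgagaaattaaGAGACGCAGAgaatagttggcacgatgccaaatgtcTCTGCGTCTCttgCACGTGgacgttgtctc
Y17G7B.17 and Y17G7B.18, II:12102522-12102622: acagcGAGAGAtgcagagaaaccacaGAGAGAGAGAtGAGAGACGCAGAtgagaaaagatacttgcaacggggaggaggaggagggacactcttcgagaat
cpt-1 and Y46G5A.18, II:12798903-12799003: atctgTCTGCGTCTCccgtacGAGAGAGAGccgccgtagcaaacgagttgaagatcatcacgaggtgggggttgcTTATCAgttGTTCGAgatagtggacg
The next pair shows the alternating CT or GA runs without the 10-base run.
srw-60 and nhr-88, II:2974038-2974138: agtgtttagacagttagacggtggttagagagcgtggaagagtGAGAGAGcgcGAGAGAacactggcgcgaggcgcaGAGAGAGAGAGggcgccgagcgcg
mtm-3 and xbx-5, III:3801463-3801563: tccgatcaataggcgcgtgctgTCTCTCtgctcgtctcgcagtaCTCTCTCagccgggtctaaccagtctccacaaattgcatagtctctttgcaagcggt
The next pair shows summits with an E-box and no match to the words of the 10-base run.
gdh-1 and tgt-1, IV:11956478-11956578: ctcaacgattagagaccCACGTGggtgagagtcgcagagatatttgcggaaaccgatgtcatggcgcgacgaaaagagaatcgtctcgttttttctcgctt
lpin-1 and letm-1, V:13658728-13658828: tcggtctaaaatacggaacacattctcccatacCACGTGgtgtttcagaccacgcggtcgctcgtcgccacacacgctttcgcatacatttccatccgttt
The last 4 lie beside small RNA genes. The first 3 are the strongest summits beside snoRNA genes on II, III, IV or V, and the fourth is beside the spliced leader gene sls-2.2. In 2 of the 4 the word in capitals is GTTCGA.
snoRNA W03C9.9, II:11960801-11960901: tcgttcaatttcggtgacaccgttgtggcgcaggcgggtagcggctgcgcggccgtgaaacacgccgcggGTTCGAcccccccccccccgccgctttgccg
snoRNA T06C12.16, V:15873938-15874038: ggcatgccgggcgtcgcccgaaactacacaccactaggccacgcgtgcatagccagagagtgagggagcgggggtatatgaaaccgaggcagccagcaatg
snoRNA F30H5.4, III:502733-502833: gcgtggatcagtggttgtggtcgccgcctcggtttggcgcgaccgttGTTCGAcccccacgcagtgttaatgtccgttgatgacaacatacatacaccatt
sls-2.2, II:5543662-5543762: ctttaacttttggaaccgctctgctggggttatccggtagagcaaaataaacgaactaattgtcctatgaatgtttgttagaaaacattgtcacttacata

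Distal sequence held a somewhat larger share of the optimal list than of the weaker candidates. Of the 4074 autosomal pooled candidates that met the rule, 320 (7.85%, 95% exact interval 7.05 to 8.72) were in the optimal list, against 6.27% of all autosomal pooled candidates. Put the other way, distal summits made up 21.8% of the optimal autosomal peaks (95% exact interval 19.7 to 24.0) and 17.1% of the 21921 lower-ranked ones (16.6 to 17.6), which is an odds ratio of 1.35 (Fisher's exact test, two-sided, p = 8.46e-06, and 4.23e-05 when adjusted over the 10 share tests). These tests count peaks, which share libraries and sometimes a locus, so they cover counting error only. The excess was smaller with a promoter window reaching 2000 bp upstream, at 13.8% of optimal and 11.96% of lower-ranked peaks, and did not pass after adjustment (exact adjusted p = 0.0693). It did not pass either without replicate 3, when replicate 4 alone gave the lists, at 20.2% and 18.0% (exact adjusted p = 0.0932). With 1 replicate, its 1929 strongest peaks stood in for the optimal list and its other candidates for the lower-ranked ones. That choice has no filter for reproducibility, so such values also differ in how the peaks were picked.

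Distal peaks were not concentrated at the very top of the list. They were 2 of the 10 autosomal peaks among the 25 strongest on all chromosomes, 10 of 71 (14.1%) among the 100 strongest and 24 of 142 (16.9%) among the 200 strongest. Among the 500 strongest they were 83 of 374 (22.2%), close to the share in the whole list. Pooled signal, a value the authors gave each peak, lay between 90.2 and 715 in the distal set, and its median was 133 (quartiles 106 and 174). Promoter-window peaks had a median of 135 and a maximum of 1104, and the distal peaks of X a median of 135 and a maximum of 948. No source used here gives the scale of this signal, so it ranks and describes peaks and carries no unit.

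The strongest distal peak was the strongest on chromosome V. It lay at V:1151347-1151681 between cutl-22, named for its likeness to cuticlins, and cmd-1, which encodes calmodulin. Its summit was 4764 bp upstream of cmd-1, inside the long intergenic non-coding RNA gene linc-128. Replicate 3 gave it a signal of 470 and rank 13, replicate 4 a signal of 245 and rank 19, and the pooled list 715. The replicates thus differed in level and placed the peak near the top alike.

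The strongest distal peak on IV, at IV:2219445-2219811, lay between T04C4.3 and fnip-2, genes that point away from each other, with its summit 2744 bp upstream of T04C4.3. Replicate 3 gave it 442, replicate 4 gave it 197 and the pooled list 632. On III, the peak at III:4281957-4282388 had its summit 1940 bp upstream of sup-26, an RNA-binding protein gene, with a pooled value of 579, and 367 and 217 in replicates 3 and 4. On II, the peak at II:5543432-5544116 lay between C17C3.24 and the insulin-like peptide gene ins-13, with values of 456, 269 and 194 in the same order. Its summit was within 100 bp of sls-2.2, a gene for the spliced leader RNA that is trans-spliced within operons. On I, the peak at I:2639695-2639925 lay between F40E3.3 and mage-1 and had values of 397, 248 and 148. In all 5 of these peaks replicate 3 was above replicate 4.

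The other members of the 12 strongest had pooled values between 309 and 454. The peak at II:2973905-2974235 (454 pooled, 309 in replicate 3, 144 in replicate 4) lay 2551 bp upstream of nhr-88, a nuclear hormone receptor gene. The peak at IV:11956334-11956669 (389 pooled) lay between gdh-1, which encodes glutamate dehydrogenase, and tgt-1, which encodes a tRNA-guanine transglycosylase, and its summit was inside the non-coding RNA gene ZK829.13. The peak at IV:4727890-4728170 (370 pooled) lay between K08F11.1 and the F-box gene fbxb-78. The peak at V:13658651-13658942 (362 pooled) lay between lpin-1, the worm lipin gene, and letm-1, and its summit was in the non-coding RNA gene H37A05.6. The peak at II:11960729-11960930 (332 pooled) lay upstream of the snoRNA gene W03C9.9. The peak at II:7337442-7337881 (321 pooled) lay 1567 bp upstream of nhr-21, another nuclear hormone receptor gene. The peak at III:3801453-3801588 (309 pooled) lay 1046 bp upstream of mtm-3, a myotubularin-family phosphatase gene.

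Nearly all distal peaks were seen in both replicates, mostly with a higher signal in replicate 3. Of the 320, 319 overlapped a candidate of any rank in replicate 3, 318 in replicate 4 and 317 in both. The optimal list holds peaks picked as reproducible, and the replicate lists are long, at 30000 and 20373 candidates. Such overlap was therefore largely set in advance. For the 757 promoter-window peaks the counts were 757, 755 and 755. Signal was higher in replicate 3 at 294 of the 317 distal peaks in both lists and higher in replicate 4 at 23. The ratio of replicate 3 to replicate 4 had a median of 1.77, with an SD of the log2 ratio across peaks of 0.55, a 1.46-fold spread. Promoter-window peaks had a median ratio of 1.74 and the same 1.46-fold spread. Across the 317 distal peaks, which are not independent replicates and share both libraries, Spearman's rho between the replicates was 0.57 and Pearson's r of log2 signal was 0.62, given as a description.

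As a stricter measure, 215 of the 320 distal peaks (67.2%) overlapped, by at least 1 bp, the 1929 strongest peaks of both replicates, against 69.9% of all autosomal optimal peaks. The share was 549 of 757 (72.5%) for promoter-window peaks, a difference that did not pass (Fisher's exact test, two-sided, p = 0.0911, adjusted p = 0.182). A peak among the strongest of replicate 3 overlapped 284 of the distal peaks and one among the strongest of replicate 4 overlapped 244, while 7 overlapped neither. The 12 strongest distal peaks all overlapped both sets.

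**Figure D1:**
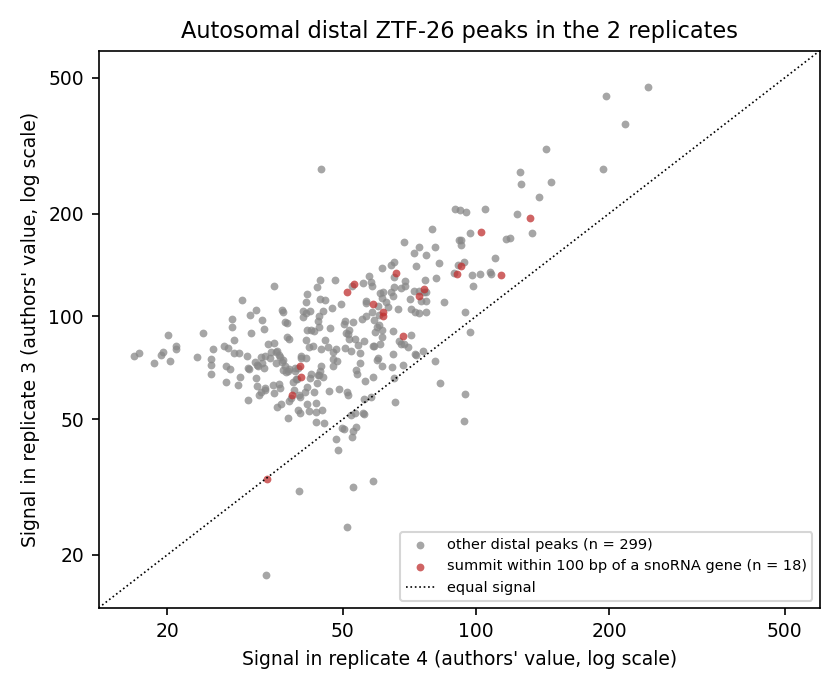
Signal of the distal peaks in replicate 3 (y axis, log scale) and replicate 4 (x axis, log scale), 1 point per peak for the 317 found in both lists, with the 18 near a snoRNA gene in red. Most points lie above the line of equal signal, with a median ratio of 1.77, and the point at a replicate 3 value of 269 and a replicate 4 value of 44.6 is the second summit of the interval near ins-13, which shares its replicate 3 peak with the stronger summit.

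Distal peaks lay less often on chromosome arms than lower-ranked distal candidates did. Taking the outer 25% of a chromosome at each end as arms and the middle 50% as the centre, 128 of 320 distal peaks (40%, 95% exact interval 34.6 to 45.6) were on arms, against 1880 of 3754 lower-ranked distal candidates (50.1%, 48.5 to 51.7), an odds ratio of 0.665 (Fisher's exact test, two-sided, p = 0.000575, adjusted p = 0.00192). The arm difference kept its direction but did not pass with arms widened so that each is as long as the centre (62.5% and 68.0%, exact adjusted p = 0.152), in the stronger 50% of the optimal list (42.1% and 50.1%, exact adjusted p = 0.154) or with a promoter window reaching 2000 bp upstream (42.4% and 51.2%, exact adjusted p = 0.0541). Promoter-window peaks were close to the distal ones, with 285 of 757 on arms (37.6%, exact p = 0.493). The stretches of autosome that meet the rule cover 19.3 Mb, or 23.3% of the autosomes, and 53.5% of that sequence is on arms. Per megabase of such sequence there were 12.4 distal peaks on arms and 21.4 in the centre, against 182 and 209 lower-ranked candidates.

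Taking both arms of a chromosome together, the density was lower on the arms than in the centre on all 5 autosomes, but single arms differed. The right arms of II and III, at 26.2 and 26.4 per megabase, were denser than their centres, at 21.3 and 24.6. The left arm of II was the sparsest of the 10 arms, at 4.03 per megabase. Chromosome V had 15 distal peaks on its arms and 45 in its centre, or 5.64 and 18.2 per megabase. Chromosome III had 29 and 34, or 20.7 and 24.6 per megabase. Chromosomes I, II and IV had 22, 26 and 36 distal peaks on their arms and 31, 37 and 45 in their centres. Without V, an alternative chosen after seeing the data, the arm share was 43.5% of distal peaks and 51.1% of lower-ranked candidates and did not pass (exact adjusted p = 0.0657). Among lower-ranked candidates the density on III was higher on the arms, at 275 per megabase, than in the centre, at 246. The share of distal candidates that reached the optimal list was 7.10% on I, 7.97% on II, 7.99% on III, 9.98% on IV and 6.40% on V.

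**Figure D2:**
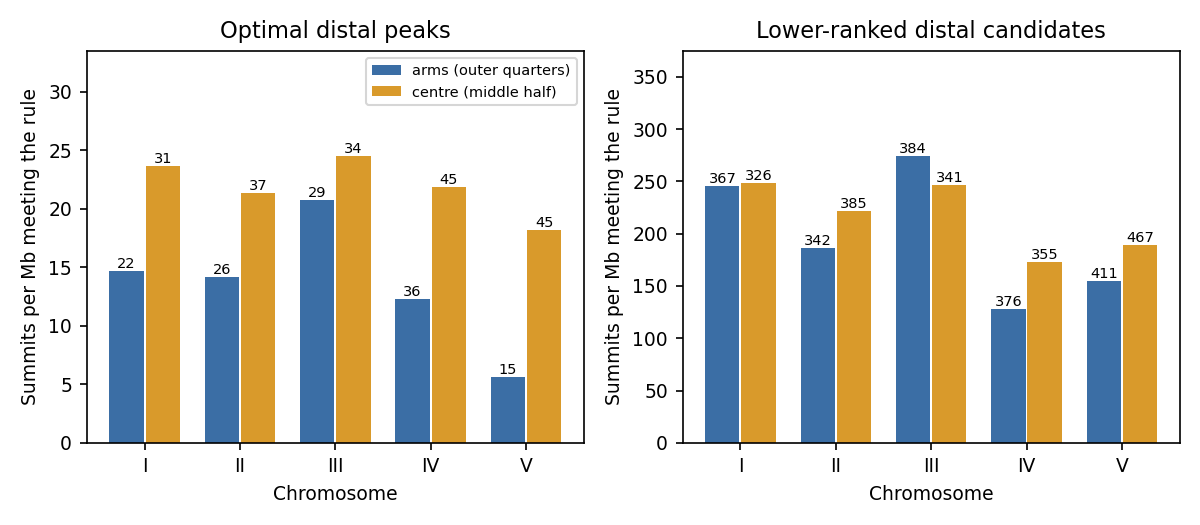
Density of summits per megabase of sequence that meets the rule, on arms (blue) and in the centre (orange) of each autosome, with the count of summits above each bar. The left panel shows the 320 optimal distal peaks and the right panel the 3754 lower-ranked distal candidates, on different scales. With the left and right arm of each chromosome pooled, distal peaks were sparsest on the arms of V, at 5.64 per megabase.

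Most distal summits were only a few kilobases from a coding start. The distance to the nearest protein-coding 5' end ran from 643 to 16225 bp with a median of 2099 bp, against a median of 2340 bp for lower-ranked candidates. Of the 320, 147 (45.9%) lay over 1000 and up to 2000 bp away, 81 from there up to 3000 bp, 61 up to 5000 bp and 18 up to 10000 bp. Only 6 were over 10000 bp from any coding start, and 7 were within 1000 bp, all downstream of the start. The summit was upstream of the nearest start at 215 (67.2%) and downstream at the others, against 65.0% upstream for lower-ranked candidates. The farthest, at I:2514139-2514578 (233 pooled, 141 in replicate 3, 92.4 in replicate 4), was 16225 bp from the start of Y23H5B.5 and 48 bp upstream of the snoRNA gene Y23H5B.10.

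**Figure D3:**
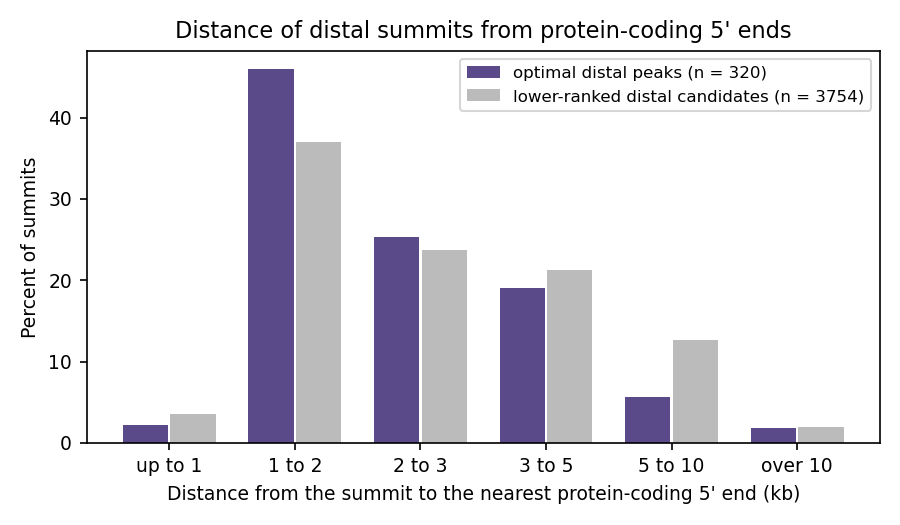
Share of summits (y axis, percent) by distance to the nearest protein-coding 5' end (x axis, kb) for the 320 optimal distal peaks (purple) and the 3754 lower-ranked distal candidates (grey). The class from 1 to 2 kb holds 45.9% of distal peaks and 37.0% of lower-ranked candidates, and that from 5 to 10 kb holds 5.63% and 12.6%.

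At the edges of the rule, the member nearest to an upstream window limit had its summit at I:7083062, 1022 bp upstream of the coding start, with a signal of 261. The nearest peak kept out by that limit had its summit at II:6370316, 987 bp upstream, with a signal of 102. The member nearest to a tRNA gene was at II:11334306, 202 bp away with a signal of 106. The otherwise distal peak kept out by the tRNA limit at the greatest distance was at II:3439563, 97 bp away with a signal of 107, and 27 peaks were kept out by that limit alone.

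The orientation of the flanking genes did not differ detectably between distal and lower-ranked summits. Genes pointed the same way around 188 of 320 distal summits (58.8%) and 57.5% of lower-ranked ones, away from the summit at 84 (26.3%) and 27.0%, and towards it at 47 (14.7%) and 15.5% (Fisher's exact tests, two-sided, adjusted p = 0.844 for each of the 3). The remaining distal peak was at a chromosome end. Within 300 bp past the 3' end of a protein-coding gene there were 62 distal summits (19.4%), against 15.6% of lower-ranked ones (exact p = 0.0792, adjusted p = 0.182). Without summits near snoRNA genes these shares were 16.6% and 15.5% (exact adjusted p = 0.69). The difference passed without replicate 3 (21.7% and 15.0%, exact adjusted p = 0.0111) and in windows of 40 to 50% G+C (19.4% and 10.9%, exact adjusted p = 0.0199). It did not pass with a promoter window reaching 2000 bp upstream (23.6% and 16.4%, exact adjusted p = 0.0541) or without replicate 4 (17.8% and 14.9%, exact adjusted p = 0.364). The stretch between the flanking genes was a median of 5378 bp long at distal peaks, 6187 bp at lower-ranked candidates and 1916 bp at promoter-window peaks.

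Some intergenic stretches held several distal peaks. The 320 peaks fell into 267 stretches, of which 40 held 2 or more and together took 93 peaks. The stretch between lpin-1 and letm-1 on V held 5, with pooled values of 362, 209, 146, 115 and 95.6. The stretch between sup-26 and R10E4.3 on III held 3, with values of 579, 229 and 175, and that between srw-60 and nhr-88 on II held 3, with values of 454, 129 and 92.2. The stretch between rho-1, a small GTPase gene, and zip-7, a bZIP factor gene, held 3 of nearly equal strength, at 166, 160 and 151. The last of these stretches, and the pair between the fatty acid desaturase genes fat-1 and fat-2 (131 and 99.5), were chosen after their values were seen. Peaks whose intervals touched could share reads, and counting 1 summit per merged interval left 309.

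A few distal peaks also shared sequence. The peak near mage-1 on I and the peak near fbxb-78 on IV, with pooled values of 397 and 370, had 102 stretches of 31 bases in common across their 301-bp windows. Reads from such copies cannot always be placed, and no source used here says how they were placed, so these values are uncertain. In all, 6 distal windows (1.88%) had over 50% of their 31-base stretches elsewhere in the genome, against 4.21% of lower-ranked and 2.64% of promoter windows.

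Among the share tests, the largest odds ratio was at snoRNA genes. Of the 320 distal summits, 19 (5.94%, 95% exact interval 3.61 to 9.12) lay within 100 bp of a snoRNA gene, against 10 of 3754 lower-ranked summits (0.266%, 0.128 to 0.489), an odds ratio of 23.6 (Fisher's exact test, two-sided, p = 5.93e-15, adjusted p = 5.93e-14). The odds ratio was 10.8 when near meant within 300 bp and 13.3 in windows of 40 to 50% G+C, and it passed in both (exact adjusted p = 8.16e-11 and 0.00246). The G+C setting rests on few summits, 5 of 124 distal and 4 of 1266 lower-ranked. Median G+C was 55.4% in the 19 distal windows near snoRNA genes and 43.6% in the other distal windows, so most of the 19 fell outside that band. Among promoter-window peaks, 28 of 757 (3.70%) lay within 100 bp of a snoRNA gene, given with no test. The 19 summits each lay beside a different snoRNA gene, and 17 were upstream of its 5' end, 1 was inside the gene and 1 was past its 3' end. The 17 upstream summits were 3 to 84 bp from the 5' end. Of the 19 peaks, 16 overlapped the strongest peaks of both replicates, and 7 were on arms.

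The strongest of these peaks was 47 bp upstream of W03C9.9 on II, with a pooled signal of 332, and values of 194 in replicate 3 and 132 in replicate 4. Next came the peaks 62 bp upstream of T06C12.16 on V (279, 176 and 103) and 57 bp upstream of T19B4.8 on I (245, 133 and 114). The peak 21 bp upstream of F30H5.4 on III (228, 133 and 90.6) lay next to unc-45, which encodes a myosin chaperone. The weakest, 25 bp upstream of B0379.13 on I, had a pooled value of 90.2, with 33.5 in replicate 3 and 33.6 in replicate 4, and is also the weakest of all 320 distal peaks. The peak with its summit inside W01C9.6 (146 pooled) had no overlapping candidate in replicate 3 and a value of 45.5 in replicate 4. The pooled values of the 19 ran from 90.2 to 332.

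**Figure D4:**
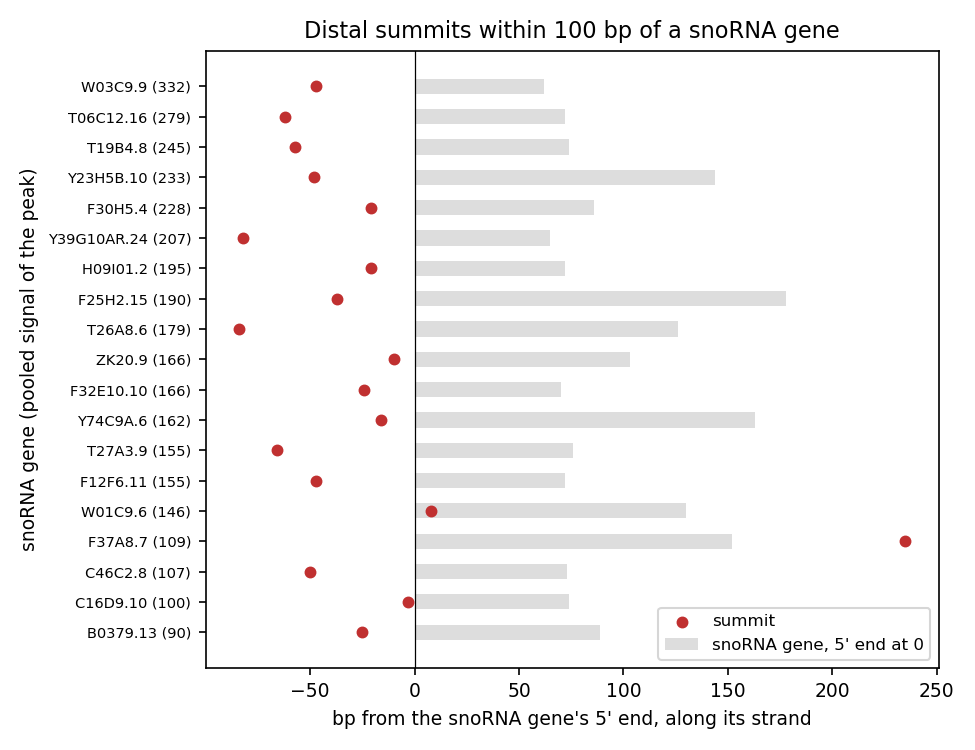
Position of each distal summit within 100 bp of a snoRNA gene (red points), in bp from the gene's 5' end along its strand, with the gene drawn as a grey bar and the pooled signal of the peak beside its name. Of the 19 summits, 17 lie to the left of 0, upstream of the gene, at 3 to 84 bp.

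Most annotated snoRNA genes lie where no distal summit could fall, in coding genes, in promoter windows or beside tRNA genes. Of 313 autosomal snoRNA genes, 62 had their middle in sequence that meets the rule, and 18 of those 62 (29.0%) had a distal peak within 100 bp. A further 8 had only a lower-ranked distal summit. Of the 19 summits, 12 lay within 300 bp past the 3' end of a protein-coding gene, against 50 of the other 301 distal summits, a comparison made after the values were seen. GTTCGA was in the windows of 5 of the 19 (26.3%), 15 of the other 301 distal peaks (4.98%) and 47 of the 106 autosomal peaks near tRNA genes (44.3%), given with no test. The share near tRNA genes was partly set in advance, because GTTCGA is the core of their B box. Where the word lies relative to the snoRNA genes was not examined. The words of the 10-base run were in 1 of the 19 windows.

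Annotated non-coding genes held a share of distal summits that did not differ detectably from that of weaker ones. The summit lay in an annotated non-coding RNA gene or pseudogene at 31 of 320 distal peaks (9.69%) and at 12.3% of lower-ranked ones (Fisher's exact test, two-sided, p = 0.181, adjusted p = 0.302). With a promoter window reaching 2000 bp upstream the shares were 8.37% and 13.8% (exact adjusted p = 0.0693). By class, 21 (6.56%) were in genes annotated as ncRNA, against 3.73% of lower-ranked summits, and 4 (1.25%) were in pseudogenes, against 7.22%. In addition, 5 were in long intergenic RNA genes, 1 in a snoRNA gene and 1 in a piRNA gene, and 1 summit counted in 2 classes. Shares by class were not tested.

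After linc-128, ZK829.13 and H37A05.6, the strongest peaks in such genes were in C10F3.15 on V, between cpg-4 and fos-1 (264 pooled, 180 in replicate 3, 79.5 in replicate 4), and in K10H10.14 on II (259, 168 and 92.4). The piRNA gene was 21ur-13200 on IV (201.3, 127 and 68.9). The strongest peak in a pseudogene was in WBGene00012975 on III (148, 89.9 and 59.2). MicroRNA genes lay within 100 bp of 2 summits, mir-51 (148 pooled) and mir-52 (129 pooled), both members of a family of related microRNAs. The spliced leader gene sls-2.2 was the only gene of its kind within 100 bp of a distal summit.

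The nearest coding genes were of many kinds. The nearest 5' end was that of a nuclear hormone receptor gene at 9 distal peaks (2.81%) and 2.42% of lower-ranked candidates, and that of a chemoreceptor gene at 4 (1.25%) and 3.14%. Neuropeptide or insulin genes were nearest at 5 distal peaks (ins-13, at which there were 2, nlp-40, nlp-68 and nlp-24), or 1.56%. Their share was 0.986% of lower-ranked candidates and 0.528% of promoter-window peaks. Collagen genes were nearest at 3 distal peaks (col-106, sqt-1 and col-139), or 0.938%, against 0.586% and 1.59% in the same order. A ribosomal protein gene was nearest at 1 distal peak, rpl-31 (94.6 pooled), which is 0.313%. The share was 0.479% of lower-ranked candidates and 2.38% of promoter-window peaks. None had a gene named ceh- (homeobox), hlh- (bHLH) or clec- (C-type lectin) as its nearest. Such genes were also rare among lower-ranked candidates, at 0.293%, 0.186% and 0.719%. Shares by gene class were not tested, and the nearest gene need not be a target.

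The sequence under distal summits differed from that under weaker ones. Of the 10 words, 7 were more frequent within 50 bp of distal summits than around lower-ranked distal summits after adjustment over all 30 word tests, and none was less frequent. The words were drawn up with results of these same peaks known, so the contrast with lower-ranked peaks is not independent evidence for them. The same limit holds for the contrasts with promoter-window and X peaks and between arms and centre below. Windows under distal summits were also richer in G+C, with a median of 44.6%, against 39.6% for lower-ranked candidates and 33.7% for 190763 windows that tile the sequence meeting the rule. Other optimal peaks were G+C-rich too, with a median of 47.5% for promoter-window peaks and 43.6% for the distal peaks of X. The shares given for tiled windows below are not matched for G+C. Among windows of 40 to 50% G+C, a restriction chosen after seeing the data, 6 of the 7 words still passed, with GAGACGC at 11.3% and 4.42% (exact adjusted p = 0.01) and the E-box at 12.1% and 3.55% (exact adjusted p = 0.00129).

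The overlapping words of the 10-base run were each more frequent under distal summits. GAGACGC was in 38 distal windows (11.9%), 3.12% of lower-ranked windows and 0.834% of the tiled windows (exact adjusted p = 5.15e-10 against lower-ranked windows, Fisher's exact test). CTGCGTC was in 38 (11.9%), 3.41% and 0.844% (exact adjusted p = 3.60e-09), and ACGCAGA in 37 (11.6%), 3.60% and 0.994% (exact adjusted p = 3.26e-08). Any of the 3 was in 52 distal windows (16.3%), but in 5 (1.56%) of the windows placed 300 bp to 1 side. The full 10-base run was in 27 distal windows (8.44%), against 2.13% of lower-ranked and 6.34% of promoter windows. Where present, ACGCAGA was a median of 13 bp from the summit.

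Runs of alternating bases were the most frequent words. GAGAGA was in 104 distal windows (32.5%), against 12.5% of lower-ranked windows (exact adjusted p = 2.98e-17) and 5.57% of tiled windows. CTCTCTC was in 55 (17.2%), against 5.43% (exact adjusted p = 1.99e-11) and 1.69%. A longer run of 10 alternating G and A bases was in 25 distal windows (7.81%), 1.47% of lower-ranked and 1.85% of promoter windows. The E-box CACGTG was in 36 distal windows (11.3%), against 2.61% of lower-ranked windows (exact adjusted p = 1.30e-10) and 1.42% of tiled windows. TGATAA was in 46 (14.4%), against 9.35% (exact adjusted p = 0.0111) and 9.06%. It did not pass in 4 alternatives, among them windows of 40 to 50% G+C (exact adjusted p = 0.0589) and the list without replicate 3 (exact adjusted p = 0.0827). Against lower-ranked windows, GTTCGA did not pass (6.25% and 4.13%, exact adjusted p = 0.119). The word CCGCCC did not pass either (5.94% and 3.76%, exact adjusted p = 0.116), nor did the word CGCCAGC (0.313% and 0.666%, exact adjusted p = 0.742). In the tiled windows these 3 words stood at 3.42%, 1.70% and 0.282%. CCGCCC passed without replicate 3 (exact adjusted p = 0.0386) and within 100 bp of the summit (10.6% and 6.63%, exact adjusted p = 0.0197).

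The words fell on partly different peaks. Of the 52 windows with a word of the 10-base run, 31 also held a CT or GA run and 3 an E-box. An E-box stood with a CT or GA run in 6 windows, and 115 of the 320 windows held none of the 10 words. The strongest peak to hold both an E-box and the 10-base run was that between T04C4.3 and fnip-2, whose sequence is given above. Of the 12 strongest distal peaks, those near sup-26 and sls-2.2 held none of the words. The word ACGCAGA was in 25 of the 160 stronger distal peaks (15.6%) and 12 of the 160 weaker ones (7.50%), with no test. In the same order, CTGCGTC was in 16.9% and 6.88%, GAGACGC in 15.6% and 8.13%, and the E-box in 13.8% and 8.75%. GAGAGA was in 33.8% and 31.3%, CTCTCTC in 19.4% and 15%, and CCGCCC in 6.88% and 5%. GTTCGA stood at 6.25% in both, TGATAA at 13.8% and 15%, and CGCCAGC at 0% and 0.625%.

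Compared with promoter-window peaks, distal peaks differed in 4 words. CGCCAGC was in 1 of 320 distal windows (0.313%) and 49 of 757 promoter windows (6.47%, adjusted p = 2.57e-06, Fisher's exact test, two-sided). GAGAGA (32.5% and 21.0%, exact adjusted p = 0.000327), CTCTCTC (17.2% and 9.64%, adjusted p = 0.00164) and TGATAA (14.4% and 8.59%, adjusted p = 0.0111) were more frequent in distal windows. With a promoter window reaching 2000 bp upstream none of these 3 passed, and TGATAA did not pass in windows of 40 to 50% G+C (12.9% and 9.12%, exact adjusted p = 0.412). Without replicate 3, GAGAGA and CTCTCTC did not pass (exact adjusted p = 0.0619 and 0.0827), and CTGCGTC did (exact adjusted p = 0.0326). The words of the 10-base run were close in both sets, at 11.9% and 10.4% for GAGACGC (exact adjusted p = 0.578), and the E-box did not pass, at 11.3% and 7.79% (exact adjusted p = 0.116). Within 100 bp of the summit the E-box did pass, at 18.4% and 12.7% (exact adjusted p = 0.0289).

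Compared with the 132 distal peaks of X, the autosomal ones held 5 words more often. ACGCAGA was in 11.6% of autosomal windows and 1.52% of X windows (exact adjusted p = 0.000512, Fisher's exact test, two-sided), and GAGACGC in 11.9% and 3.03% (exact adjusted p = 0.00473). CTGCGTC had the same counts as GAGACGC on both. GAGAGA was in 32.5% and 11.4% (exact adjusted p = 7.24e-06) and CTCTCTC in 17.2% and 4.55% (exact adjusted p = 0.000593). The last of these did not pass without replicate 3 (exact adjusted p = 0.0659), and TGATAA and CCGCCC passed without replicate 4 (exact adjusted p = 0.0106 and 0.0322). TGATAA also passed within 100 bp of the summit (26.3% and 15.9%, exact adjusted p = 0.0312). The E-box did not differ detectably, at 11.3% of autosomal and 12.1% of X windows (exact adjusted p = 0.871).

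Within the distal set, several words were more frequent on arms than in the centre, a comparison made after the values were seen. GAGAGA was in 56 of 128 windows on arms (43.8%) and 48 of 192 in the centre (25%, Fisher's exact test, two-sided, adjusted over the 10 words, p = 0.00309). CTCTCTC was in 34 (26.6%) and 21 (10.9%, exact adjusted p = 0.00309), and GAGACGC in 24 (18.8%) and 14 (7.29%, adjusted p = 0.00844). CTGCGTC (17.2% and 8.33%, exact adjusted p = 0.0534) and ACGCAGA (16.4% and 8.33%, exact adjusted p = 0.0647) did not pass. In lower-ranked distal windows each word of the 10-base run was more frequent on arms. There GAGACGC was at 4.26% and 1.97% (exact adjusted p = 0.000225), CTGCGTC at 4.89% and 1.92% (exact adjusted p = 5.13e-06) and ACGCAGA at 4.89% and 2.29% (exact adjusted p = 0.000107). GAGAGA did not pass in the lower-ranked windows (11.9% and 13.0%, exact adjusted p = 0.462), nor did CTCTCTC (5.85% and 5.02%, exact adjusted p = 0.462). In promoter windows none of the 10 words passed, with GAGAGA at 23.2% on arms and 19.7% in the centre (exact adjusted p = 0.675) and GAGACGC at 13.3% and 8.69% (exact adjusted p = 0.477). Whether the arm difference itself differs between the sets was not tested.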

How the data were processed

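ZTF-26 ChIP-seq peak lists of 2 biological replicates (1 group) were used on ce11, and lists on ce10 were not used. Per the deposited list of files, peaks of each replicate were called against a control by the authors, who also called 28233 pooled peaks and derived the optimal list. No source used here gives the aligner, the peak caller or the reproducibility threshold. The deposited signal is the authors' value per peak, on a scale not given. The deposited −log10 q-value was 3.63 at every optimal peak, so it ranked nothing. Summits were the deposited start plus the deposited offset. The files hold no read counts, so depth is unknown.

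Genes came from Ensembl release 115 (WBcel235) and sequence from the RefSeq genome of that build. Fisher's exact tests, two-sided, compared shares. Benjamini-Hochberg adjustment at 0.05 ran over 10 share tests (the 3 orientations alone for those) and over 30 word tests. Alternatives were adjusted in the same way, with tests that an alternative did not recompute at their original p. Intervals are 95% exact Clopper-Pearson. Intervals and tests cover counting error between peaks, not variation between cultures. Tests were checked on simulated data (Python 3.11.15, numpy 2.4.6, pandas 2.3.3, scipy 1.17.1, matplotlib 3.10.9). The simulated words and windows were independent, so the check does not cover overlapping words or peaks that share a locus. The peaks named are the 12 strongest, the strongest of each autosome and each class of non-coding gene, the farthest from a coding start and those at the limits of the rule. Others were named after their values were seen. The members, words and gene classes were chosen with earlier results of these data known. Alternatives changed the promoter window, tRNA distance, arm limits, word window, snoRNA and 3' end distances, overlap, peak set and replicates. Those with 1 replicate used its 1929 strongest peaks by signal in place of the optimal list.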

Additional observations from a re-analysis of the deposited data

How the results depend on the processing

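No paired analysis was possible because the 2 replicates form a single group. Each share difference, in percentage points of distal peaks less the comparison set, was recomputed under other settings. The excess of distal peaks in the optimal list, the lower arm share than in lower-ranked candidates and the snoRNA excess kept their direction in every alternative run for them, and the snoRNA excess also passed in each. The distal excess no longer passed with a promoter window reaching 2000 bp upstream (1.89 points) or without replicate 3 (2.21 points). The arm difference no longer passed with that window (-8.80 points), in the stronger 50% of the list (-8.01), with arms widened so that each is as long as the centre (-5.45) or without chromosome V (-7.62). The distal excess was 2.21 to 4.38 points, the arm difference from lower-ranked candidates -12.9 to -9.16 points and the snoRNA excess 5.09 to 6.03 points with 1 replicate's own list. The arm difference from promoter-window peaks, 2.35 points, was -2.76 to 4.01 with 1 replicate.

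With the 2000 bp window, the 3 orientation differences turned to 2.01 (away), 0.843 (towards) and -3.34 points (same way), and 0 words, not 3, were more frequent than in promoter windows. Past 3' ends the difference passed in windows of 40 to 50% G+C (8.45 points) and without replicate 3, and ranged over 2.83 to 6.72 points with 1 replicate's list. The towards difference ranged over -1.40 to 1.74 points with 1 replicate, and the away difference turned to 0.106 points at 40 to 50% G+C and 0.319 without summits near snoRNA genes. For single words against promoter windows, GTTCGA turned to -0.0899 points and CCGCCC to 0.772 with the 2000 bp window, and CCGCCC to 1.74 at 40 to 50% G+C and -1.24 to 0.291 with 1 replicate. The E-box difference from X was -1.58 to 0.773 points with 1 replicate. Of 300 recomputed differences for single words, 277 kept their direction and side of the threshold, 11 no longer passed, 7 passed newly and 5 turned. The causes of these changes were not tested. The settings on G+C, repeats, snoRNA genes and chromosome V were chosen after seeing the data. With no counts deposited, depth cannot be weighed.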

Other observations

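The peaks below were picked for the genes beside them after their values were seen, and the roles of those genes were neither counted nor tested over the distal set. A peak at V:20778345-20778455, with its summit 2024 bp upstream of hif-1, the gene for the hypoxia-inducible transcription factor, had a pooled signal of 210, with 130 in replicate 3 and 81.1 in replicate 4, and its window held GAGACGC and ACGCAGA. A peak at III:7376387-7376826, 1876 bp upstream of mml-1, which encodes a Myc and Mondo-like factor, had 219, 134 and 89.1 in the same order and held ACGCAGA. A peak at II:12798733-12799172, 2501 bp upstream of cpt-1, a carnitine palmitoyltransferase gene, had 236, 142 and 91.0.

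Peaks with an E-box included those 1136 bp upstream of hpd-1, an enzyme gene of tyrosine breakdown (257 pooled, 162 in replicate 3, 92.5 in replicate 4), and 1212 bp upstream of idh-1, an isocitrate dehydrogenase gene (193, 118 and 77.2). Genes for small heat shock proteins had the nearest start at 2 weaker peaks, hsp-16.48 (128 pooled, 79.1 and 52.0 in replicates 3 and 4) and hsp-16.41 (98.7, 89.6 and 24.1). In each of these peaks replicate 3 was above replicate 4, as at most distal peaks.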
